A study of Homo sapiens with 6 samples.

Results

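Collagen chain genes encode the alpha chains of the collagens, and they were taken here as every row of the deposited count table whose symbol has the form COL, a number, A and a number. The rule found 44 chains among 61860 rows. They were divided into 11 fibrillar chains, 6 basement membrane chains of type IV, 5 chains of type VI and 22 other chains. The RNA came from 786-O, a human kidney cancer line (clear cell carcinoma) with no working VHL, the protein through which hypoxia-inducible factors are degraded. All libraries came from cells stably carrying a short hairpin RNA (shRNA), either a control hairpin (3 libraries) or a hairpin against METTL3 (3 libraries), the methyltransferase that places N6-methyladenosine (m6A) in messenger RNA. The study's subject is m6A in renal tumours rich in L-2-hydroxyglutarate. The comparison asked here is which collagen chains differ in RNA level when METTL3 is reduced.

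A collagen molecule is a trimer of alpha chains wound into a triple helix, which requires glycine at regular spacing and hydroxylated proline. Fibrillar collagens form the banded fibrils of connective tissue, type IV collagen forms the sheet of basement membranes, and type VI collagen forms beaded microfilaments near cell surfaces. Chains are often made as fixed partners, and a chain without its partner may not be secreted. In kidney, tubular epithelium rests on a basement membrane of type IV collagen, whereas fibrillar collagens are mainly products of fibroblasts.

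The letters A, B and C name the libraries of each group as the deposited columns do, and no label links a letter to a replicate number. Where values of 3 libraries are listed, they stand in the order A, B, C. Separate cultures are not mentioned in the labels, and the spread that the p-values measure may therefore be technical. Total counts ran from 100534896 to 103624456 per library. METTL3 itself checked the assignment of columns to groups. It stood at 37.2, 38.1 and 37.6 CPM with the control hairpin and at 11.3, 9.84 and 11.4 CPM with the METTL3 hairpin (log2 fold change −1.80, SE 0.08, edgeR adjusted p = 1.45e-07), although METTL3 overlaps TOX4 on the opposite strand. CPM are counts scaled to a common library total after TMM scaling, which corrects totals for composition, and they serve comparisons of a gene between libraries. Levels of different genes are compared in the deposited FPKM, which are also divided by transcript length. The keratins KRT8 and KRT18 had 16156 to 20058 and 9107 to 12275 counts per library, and the renal transcription factor PAX8 had 14670 to 18890, whereas the epithelial cadherin CDH1 had 0 to 11. Of 9 fibroblast markers, 5 were silent, among them PDGFRA and DCN with at most 2 counts in a library. Of 8 endothelial markers, 6 were silent. Of 8 leukocyte markers, 4 were silent, among them PTPRC and CD3E, and 4 were tested. CD68, a lysosomal glycoprotein, had 5393 to 11116 counts and rose (log2 fold change 0.95, SE 0.10), CD14, at 5 to 30 counts, fell (−1.41, SE 0.43), and CSF1R and ITGAM did not pass. CD14 reached 10 counts in the control libraries alone, so the filter on low counts kept it through the group in which it was high.

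The collagen RNA of these cells was made up mainly of chains of basement membranes and cell surfaces, and most fibrillar chains were silent or low. Silent is used here for at most 10 counts in each of the 6 libraries, and 15 of the 44 chains were silent. They were the fibrillar chains COL1A2, COL2A1, COL3A1, COL5A3 and COL11A1, the type VI chains COL6A5 and COL6A6, the fibril-associated chains COL9A1, COL19A1, COL21A1 and COL22A1, the network chain COL10A1, the transmembrane chains COL23A1 and COL25A1, and COL26A1. COL3A1 and COL21A1 had 0 counts in every library, where a count of 0 allows up to 0.0290 to 0.0298 CPM (3 counts per library, counting error only). COL1A2, the partner of COL1A1 in type I collagen, had 1 count in control library C and 0 in the others. COL4A6 had 1 to 14 counts and was not silent, but it did not pass the filter on low counts. That left 28 chains for the test.

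The highest levels were those of COL4A2, at 267 ± 16.2 FPKM (SD, n = 3) with the control hairpin and 267 ± 6.33 FPKM (SD, n = 3) with the METTL3 hairpin. COL4A1, its partner in type IV collagen, had 135 ± 1.65 and 135 ± 7.31 FPKM. COL7A1, the chain of anchoring fibrils, had 130 ± 12.7 and 157 ± 7.78 FPKM, and COL18A1, whose product carries endostatin, had 124 ± 4.35 and 126 ± 9.67 FPKM. In the control libraries COL7A1, at 120.4 to 144 FPKM, overlapped both COL4A1 (134 to 137 FPKM) and COL18A1 (119 to 127 FPKM), which did not overlap each other. In the knockdown libraries COL7A1, at 152 to 166 FPKM, lay above COL4A1, at 130.3 to 143 FPKM, and COL4A1 overlapped COL18A1, at 115 to 132 FPKM. The type VI chains COL6A2 and COL6A1 followed, with 58.0 ± 4.91 and 20.6 ± 1.92 FPKM in the control group. Next came COL27A1, a fibrillar chain, at 19.3 ± 1.60 FPKM, COL8A1, a chain of hexagonal networks, at 13.2 ± 1.23 FPKM, and COL4A5 at 6.40 ± 1.39 FPKM. COL13A1, COL16A1, COL12A1, COL6A3 and COL11A2 lay between 1.01 and 5.55 FPKM in the control group, and the other 30 chains were under 1 FPKM in both group means.

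Collagen chains together took 0.289% ± 0.019 of all counts (SD, n = 3) with the control hairpin and 0.295% ± 0.013 (SD, n = 3) with the METTL3 hairpin, and these ranges overlapped. Within the summed collagen FPKM the balance of classes differed. Basement membrane chains made up 51.2%, 51.8% and 51.7% with the control hairpin and 46.7%, 46.4% and 49.9% with the METTL3 hairpin. Type VI chains made up 10.7%, 10.6% and 9.44% in the control libraries and 15.05%, 15.8% and 12.3% in the knockdown libraries. Neither share overlapped between the groups, and knockdown library C lay nearest to the controls in both. The sum itself was 793 ± 35.7 and 857 ± 30.0 FPKM (SD, n = 3 each), with overlap. COL4A1 and COL4A2, which made up most of the basement membrane share, had like mean FPKM in both groups. What moved the share was not tested. Fibrillar chains held 2.72% ± 0.17 and 2.44% ± 0.28 (SD, n = 3 each). The 6 highest chains, COL4A1, COL4A2, COL7A1, COL18A1, COL6A2 and COL6A1, held 92.6% ± 0.32 and 93.9% ± 0.39 of the sum.

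**Figure D1:**
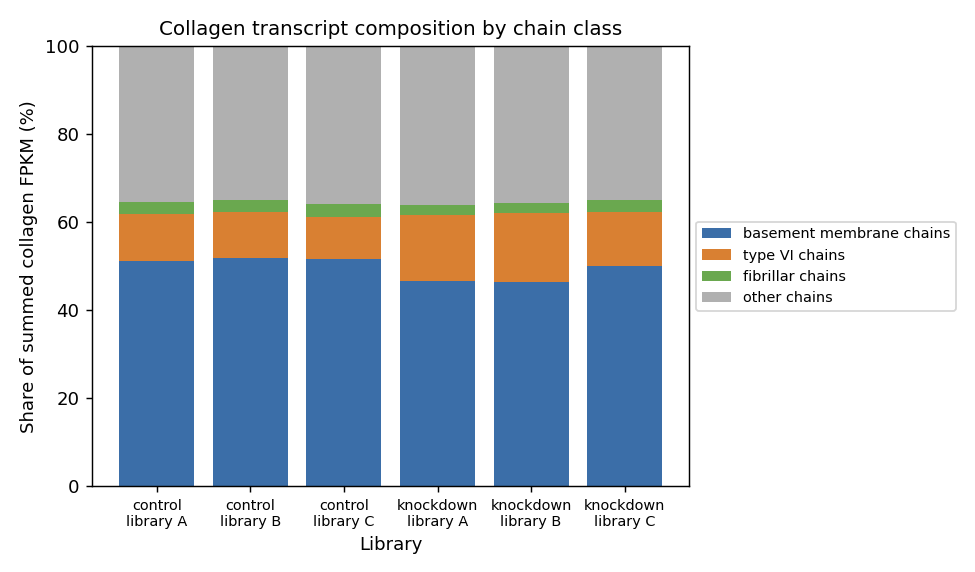
Share of the summed collagen FPKM (vertical axis, percent) in each of the 6 libraries (horizontal axis), with colours for the 4 classes of chains. Type VI chains take 9.44% to 10.7% in the control libraries and 12.3% to 15.8% in the knockdown libraries.

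The type VI chains COL6A1 and COL6A2 and the basement membrane chains COL4A3 and COL4A4 rose, as did COL7A1 and COL14A1, while COL12A1, COL13A1, COL16A1, COL17A1, COL15A1, COL20A1 and COL11A2 fell. Of the 28 chains tested, 6 rose, 7 fell and 15 did not pass (quasi-likelihood test of edgeR, p adjusted by Benjamini-Hochberg over all 18740 genes tested, threshold 0.05). Among all genes tested, 33.5% were called, 16.5% higher and 16.9% lower, against 46.4% of the tested chains. The knockdown libraries lay wholly above the control libraries for 6 chains and wholly below them for 8, and over all genes tested the groups did not overlap for 47.4%, with 23.4% above and 23.9% below. The median log2 fold change of the tested chains was −0.04, beside −0.0030 over all genes tested. By class, 0 of 6 tested fibrillar chains rose and 1 fell, 2 of 5 basement membrane chains rose and 0 fell, 2 of 3 type VI chains rose and 0 fell, and 2 of 14 other chains rose and 6 fell. The class medians were −0.25, 0.01, 0.66 and −0.36. The counts of 0 in the first 3 classes were also 0 with DESeq2, limma-voom and an unadjusted edgeR p under 0.05. COL20A1 and COL24A1 reached 10 counts in all control libraries but not in all knockdown libraries, so the filter kept them through the group in which they were high.

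**Figure D2:**
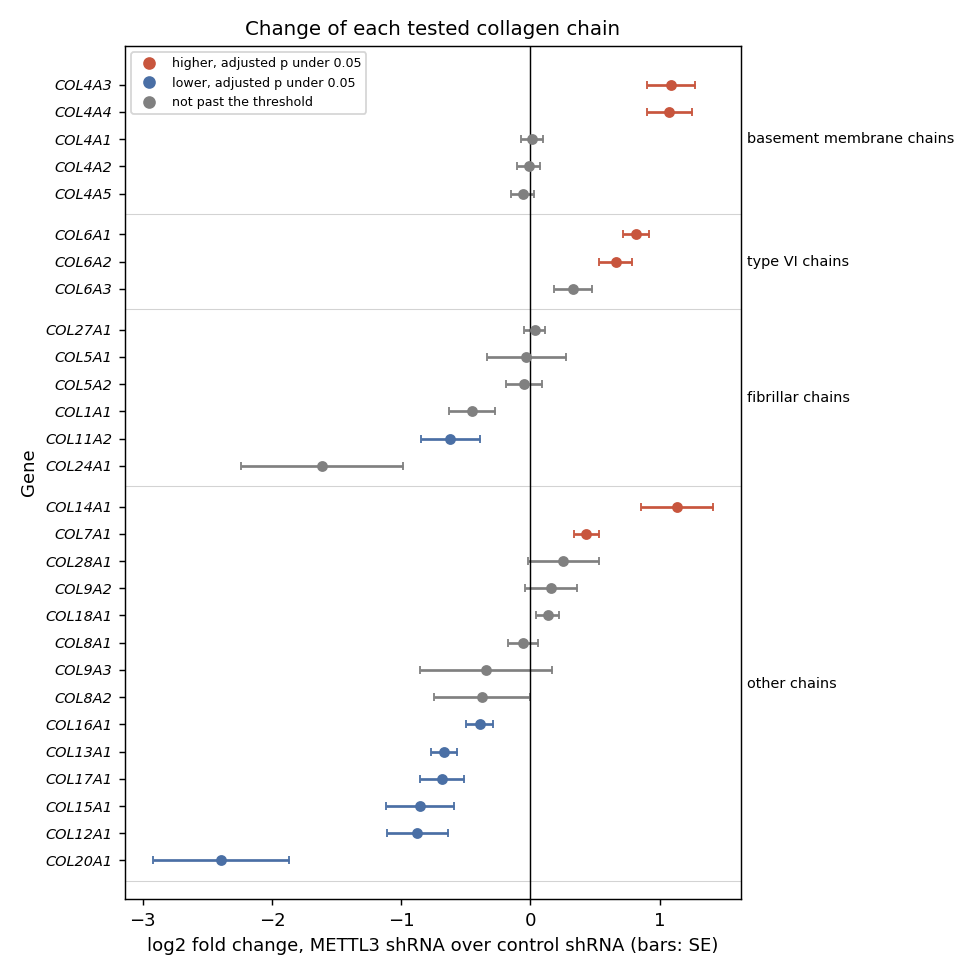
Log2 fold change of METTL3 shRNA over control shRNA (horizontal axis) for the 28 tested collagen chains (vertical axis), by class, with bars for the standard error. Red marks the 6 chains past the threshold that were higher, blue the 7 that were lower, and grey the 15 that did not pass.

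The 2 most abundant basement membrane chains, COL4A1 and COL4A2, showed no change past the test. They form the type IV network found in nearly all basement membranes. COL4A1 stood at 622, 548 and 595 CPM with the control hairpin and at 562, 608 and 606 CPM with the METTL3 hairpin (log2 fold change 0.01, SE 0.09, edgeR adjusted p = 0.946). Its sign turned with library size scaling and with FPKM. COL4A2 stood at 991, 881 and 1011 CPM and at 940.3, 994 and 921 CPM (−0.01, SE 0.09, edgeR adjusted p = 0.918). The groups overlapped for both genes. They lie head to head on chromosome 13 and start 127 bases apart in the RefSeq promoter table (GRCh38.p14). The 300-base window of COL4A2, from 250 bases before its start to 50 after, on the plus strand at chr13:110307034-110307333, holds both start sites, and it is shown because this shared region serves the most abundant collagen pair of the cells. Capitals mark the CCAAT box (CCAAT or ATTGG), the GC box (GGGCGG or CCGCCC) and the TATA box (TATAAA or TTTATA) on either strand.
COL4A2: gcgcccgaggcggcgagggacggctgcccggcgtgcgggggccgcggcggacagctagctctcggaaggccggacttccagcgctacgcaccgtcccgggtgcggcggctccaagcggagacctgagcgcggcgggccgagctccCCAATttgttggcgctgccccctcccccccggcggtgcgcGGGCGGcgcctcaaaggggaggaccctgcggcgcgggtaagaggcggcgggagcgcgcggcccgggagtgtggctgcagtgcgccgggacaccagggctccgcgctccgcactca
It holds 1 CCAAT box, 1 GC box and 45 CpG dinucleotides, and 0 TATA boxes.

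COL4A3 and COL4A4, the chains that replace the common type IV pair in the glomerular and some tubular basement membranes, were low. Both rose, by like amounts in counts. COL4A3 (chromosome 2, 227164565 to 227314792) had 68, 67 and 68 counts with the control hairpin and 119, 155 and 119 counts with the METTL3 hairpin. This was 0.633 ± 0.018 and 1.35 ± 0.22 CPM (SD, n = 3 each; log2 fold change 1.09, SE 0.19, edgeR adjusted p = 0.000922). COL4A4 (chromosome 2, 227002711 to 227164453) had 98, 128 and 121 counts in the control libraries and 228, 244 and 192 in the knockdown libraries (1.08, SE 0.17, edgeR adjusted p = 0.000565). Every knockdown library lay above every control library for both. COL4A3 overlaps MFF-DT on the opposite strand, and no source used here gives the strand setting of the counting. MFF-DT had more counts than COL4A3, 303 to 558 per library, and it fell (−0.46, SE 0.12, edgeR adjusted p = 0.0124), in the direction opposite to COL4A3. COL4A4 overlapped no other annotated exon.

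The starts of COL4A3 and COL4A4 lie 419 bases apart and point away from each other. Their windows are shown because both genes rose and their annotated starts are neighbours. Which start sites the cells used was not measured. COL4A3 is on the plus strand at chr2:227164374-227164673 and COL4A4 on the minus strand at chr2:227164156-227164455, with the same boxes in capitals.
COL4A3: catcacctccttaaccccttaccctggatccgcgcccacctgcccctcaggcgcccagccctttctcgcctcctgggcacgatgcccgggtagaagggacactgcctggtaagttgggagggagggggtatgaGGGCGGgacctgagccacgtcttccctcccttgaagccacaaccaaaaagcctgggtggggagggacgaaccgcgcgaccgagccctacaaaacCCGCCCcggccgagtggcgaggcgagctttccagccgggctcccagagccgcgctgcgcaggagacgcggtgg
COL4A4: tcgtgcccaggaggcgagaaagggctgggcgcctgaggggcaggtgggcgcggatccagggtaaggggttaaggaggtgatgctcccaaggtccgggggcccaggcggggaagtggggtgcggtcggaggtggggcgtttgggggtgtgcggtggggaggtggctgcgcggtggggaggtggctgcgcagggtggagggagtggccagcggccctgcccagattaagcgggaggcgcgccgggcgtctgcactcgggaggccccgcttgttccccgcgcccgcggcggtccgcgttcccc
COL4A3 holds 2 GC boxes and COL4A4 0, and 0 CCAAT or TATA boxes are found in either window. COL4A5, the partner of COL4A3 and COL4A4 in that network, did not follow them. It stood at 19.9, 18.6 and 22.3 CPM in the control libraries and at 19.4, 20.8 and 18.2 CPM in the knockdown libraries (−0.06, SE 0.09, edgeR adjusted p = 0.646). The deposited FPKM of COL4A3 and COL4A4 in the knockdown group, 0.317 ± 0.071 and 0.227 ± 0.035, remained far under the 5.88 ± 0.33 FPKM of COL4A5.

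Type VI collagen is assembled from COL6A1, COL6A2 and a long variable chain, here COL6A3. COL6A1 (chromosome 21, 45981737 to 46005050) stood at 52.0, 48.8 and 55.8 CPM with the control hairpin and at 99.0, 100.6 and 76.6 CPM with the METTL3 hairpin. It rose 1.76-fold (log2 fold change 0.82, SE 0.10, edgeR adjusted p = 0.000133). COL6A2 (chromosome 21, 46098097 to 46132849) rose 1.58-fold, from 189, 170.2 and 148 CPM to 291, 301 and 210.2 CPM (0.66, SE 0.13, edgeR adjusted p = 0.00187). For both genes all knockdown libraries lay above all control libraries, and knockdown library C was the lowest of its group. COL6A3 had 10.1, 7.95 and 7.89 CPM in the control libraries and 10.7, 13.3 and 8.53 CPM in the knockdown libraries, and its groups overlapped (0.33, SE 0.15, edgeR adjusted p = 0.0973). Without knockdown library C it passed (0.48, adjusted p = 0.00933), as it did without control library A (0.45, adjusted p = 0.0399). With all libraries kept, it also passed without the filter on low counts (0.33, edgeR adjusted p = 0.0124). COL6A1 is absent from the promoter table. The window of COL6A2, on the plus strand at chr21:46097862-46098161, is shown as that of the more abundant of the chains that rose.
COL6A2: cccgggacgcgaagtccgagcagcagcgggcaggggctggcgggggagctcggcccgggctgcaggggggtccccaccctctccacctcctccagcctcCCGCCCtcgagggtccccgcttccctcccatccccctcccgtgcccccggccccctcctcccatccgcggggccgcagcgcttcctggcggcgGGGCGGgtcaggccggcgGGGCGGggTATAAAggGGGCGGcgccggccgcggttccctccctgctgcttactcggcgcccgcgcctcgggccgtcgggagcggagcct
It holds 4 GC boxes and 1 TATA box.

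COL7A1, the only chain of type VII collagen, which anchors epithelia to the tissue beneath, was the most abundant chain that rose. It stood at 335, 287 and 366 CPM with the control hairpin and at 433, 465 and 437 CPM with the METTL3 hairpin. The groups did not overlap, and the rise was 1.35-fold (log2 fold change 0.43, SE 0.10, edgeR adjusted p = 0.00407). COL7A1 is a minus-strand gene (chromosome 3, 48564073 to 48595267), and its chosen transcript has 118 exons. Its window, at chr3:48595280-48595579, is shown because it belongs to the most abundant chain that rose.
COL7A1: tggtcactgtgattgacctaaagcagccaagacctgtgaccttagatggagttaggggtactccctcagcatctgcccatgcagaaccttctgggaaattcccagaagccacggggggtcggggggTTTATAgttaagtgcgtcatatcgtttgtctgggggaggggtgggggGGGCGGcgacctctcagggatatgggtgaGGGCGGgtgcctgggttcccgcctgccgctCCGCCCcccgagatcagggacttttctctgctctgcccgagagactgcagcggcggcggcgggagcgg
It holds 3 GC boxes and 1 TATA box, the latter on the opposite strand.

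**Figure D3:**
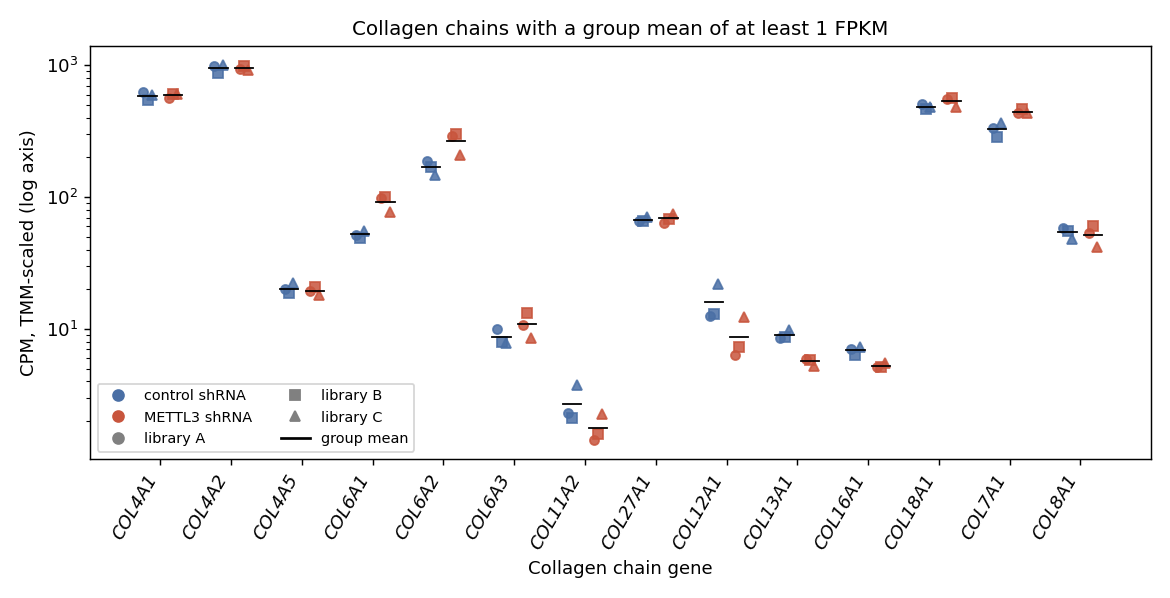
TMM-scaled CPM on a log axis (vertical) of the 14 collagen chains with a group mean of at least 1 FPKM (horizontal), with a symbol for each library and a line at each group mean. The groups separate for COL6A1, COL6A2 and COL7A1, where the knockdown libraries are higher, and for COL12A1, COL13A1 and COL16A1, where they are lower.

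Fibrillar chains were mostly low, and COL11A2 was the member that fell. COL11A2, a minor fibrillar chain best known from cartilage, had 240, 225 and 412 counts with the control hairpin and 136, 156 and 227 counts with the METTL3 hairpin. These groups overlapped, since knockdown library C exceeded control library B, and the log2 fold change was −0.62 (SE 0.22, edgeR adjusted p = 0.0485). The call was lost without control library C (−0.32, adjusted p = 0.242), without knockdown library A (adjusted p = 0.177) or B (adjusted p = 0.157), with limma-voom (−0.60, adjusted p = 0.0607) and with FPKM (0.187 to 0.375). COL1A1, the main chain of type I collagen, had 155, 150 and 211 counts in the control libraries and 106, 128 and 108 in the knockdown libraries. Its groups did not overlap, but it did not pass (−0.45, SE 0.18, edgeR adjusted p = 0.0645), except with library size scaling (−0.57, adjusted p = 0.0295).

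The most abundant fibrillar chain, COL27A1, stood at 65.6, 66.3 and 70.4 CPM with the control hairpin and at 63.8, 68.2 and 74.8 CPM with the METTL3 hairpin (0.03, SE 0.08, edgeR adjusted p = 0.787). The sign of this value turned with library size scaling and with FPKM. COL5A2 and COL5A1, chains of the type V collagen that regulates fibril width, stood at −0.05 (SE 0.14) and −0.03 (SE 0.31) on the log2 scale. COL24A1 had 24, 21 and 16 counts in the control libraries and 4, 0 and 14 in the knockdown libraries. Its groups did not overlap, and it did not pass (−1.61, SE 0.63, edgeR adjusted p = 0.0623), but it did with limma-voom (adjusted p = 0.0247), without the filter on low counts (0.00542) and without knockdown library C (0.00492).

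Fibril-associated chains, which bind the surface of fibrils, moved both ways. COL12A1, the chain of type XII collagen, had 1301, 1395 and 2428 counts with the control hairpin and 597, 703 and 1243 counts with the METTL3 hairpin. The C library was the highest of each group, and knockdown library C lay just under the lowest control in CPM (12.4 against 12.5). The log2 fold change was −0.88 (SE 0.24, edgeR adjusted p = 0.0128). The call was lost without control library C (−0.56, adjusted p = 0.0520), without knockdown library A (−0.70, adjusted p = 0.0708) or B (−0.76, adjusted p = 0.0711) and with DESeq2, at the same log2 fold change of −0.88 (adjusted p = 0.0757). COL16A1, the chain of type XVI collagen, fell from 7.09, 6.35 and 7.28 CPM to 5.11, 5.13 and 5.53 CPM, with no overlap (−0.39, SE 0.10, edgeR adjusted p = 0.0106).

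COL14A1 was the fibril-associated chain that rose, from 20, 20 and 24 counts to 49, 44 and 35 counts (1.14, SE 0.28, edgeR adjusted p = 0.00726). It was under 0.1 FPKM in every library. COL20A1 had 24, 42 and 111 counts with the control hairpin and 12, 5 and 13 counts with the METTL3 hairpin (−2.40, SE 0.53, edgeR adjusted p = 0.00407). Control library C carried much of the size of the fall, which was −1.60 without it (edgeR adjusted p = 0.0155). The type IX chains COL9A2 (0.16, SE 0.20) and COL9A3 (−0.35, SE 0.51) did not pass, and COL9A3 overlaps TCFL5 on the opposite strand.

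Both tested transmembrane chains fell. COL13A1, a chain of cell adhesion sites (chromosome 10, 69801867 to 69964275), stood at 8.55, 8.66 and 9.85 CPM with the control hairpin and at 5.95, 5.86 and 5.22 CPM with the METTL3 hairpin. Every knockdown library lay below every control library (−0.67, SE 0.10, edgeR adjusted p = 0.000433), and the call held in every alternative run. COL17A1, the hemidesmosomal chain of epithelia, had 198, 220 and 275 counts in the control libraries and 127, 111 and 153 in the knockdown libraries (−0.69, SE 0.17, edgeR adjusted p = 0.00806). It did not pass with FPKM (adjusted p = 0.115 to 0.269), where knockdown library A, at 0.75, lay above control library B, at 0.63.

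Of the multiplexins, collagens of the basement membrane zone, COL18A1 showed no change past the test and COL15A1 fell. COL18A1 stood at 512, 468 and 480 CPM with the control hairpin and at 554, 568 and 482 CPM with the METTL3 hairpin, with overlap (0.14, SE 0.09, edgeR adjusted p = 0.261). It overlaps SLC19A1 on the opposite strand, which had 4437 to 4939 counts against 48360 to 55205 for COL18A1. COL15A1 had 95, 83 and 168 counts in the control libraries and 56, 46 and 71 in the knockdown libraries (−0.86, SE 0.26, edgeR adjusted p = 0.0235). The groups did not overlap, and the call was lost without control library C (−0.51, adjusted p = 0.114) and without knockdown library A (0.0703) or B (0.107). The network chains COL8A1 (−0.06, SE 0.12) and COL8A2 (−0.37, SE 0.37) and the chain COL28A1 (0.26, SE 0.28) did not pass.

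**Figure D4:**
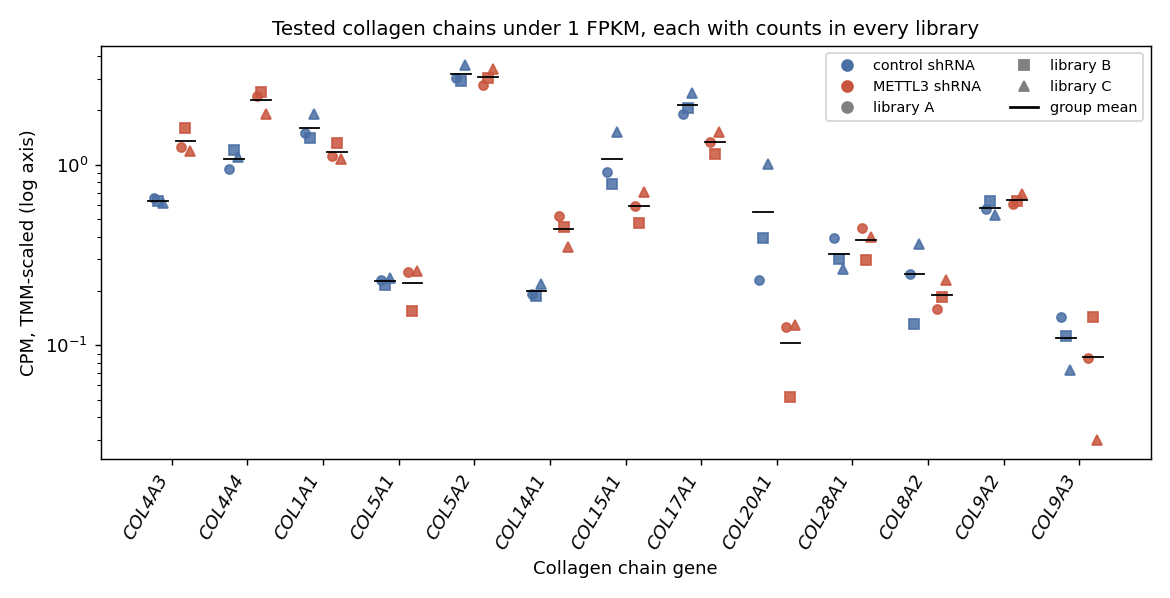
TMM-scaled CPM on a log axis (vertical) of 13 tested chains under 1 FPKM with counts in every library (horizontal), with a symbol for each library and a line at each group mean. COL4A3, COL4A4 and COL14A1 are higher in every knockdown library, whereas COL1A1, which did not pass the test, COL15A1, COL17A1 and COL20A1 are lower.

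Some of the falls were not called when a single library was left out, and marker levels differed between the groups. Control library C was the highest control for 17 of the 28 tested chains, among them COL11A2, COL12A1, COL15A1 and COL20A1. Without it 4 chains were lower instead of 7 and 6 were higher, and the same counts were found without knockdown library A and without knockdown library B. Calls over all genes fell as well, from 3171 lower to 2304 without control library C, 2506 without knockdown library A and 1959 without knockdown library B. Fibroblast markers also moved with the groups. Their summed level was 3.20 to 3.30 CPM in the control libraries and 1.39 to 1.72 CPM in the knockdown libraries. PDGFRB made up most of it, at 2.15 ± 0.05 and 0.929 ± 0.211 CPM (SD, n = 3 each). Of the 4 tested, PDGFRB (−1.21), LUM (−1.57) and FBLN1 (−0.76) fell and THY1 (−0.43) did not pass. Among all genes tested, 16.9% were called lower. LUM and THY1 reached 10 counts in all 3 control libraries but in 2 and 1 knockdown libraries, so the filter kept them through the control group. The other 5 markers of that list, PDGFRA, DCN, DPT, PI16 and TCF21, had at most 3 counts in any library. The summed level of the leukocyte markers was 50.0 to 59.2 CPM in the control libraries and 88.5 to 115 CPM in the knockdown libraries. The lysosomal glycoprotein CD68 made up nearly all of it, at 53.5 ± 4.68 and 103.5 ± 14.1 CPM (SD, n = 3 each). Of the other leukocyte markers tested, CD14 fell (−1.41) and CSF1R and ITGAM did not pass. The part of these marker levels in the changes of the collagen chains was not tested. Epithelial markers moved as well, with 3 of 7 tested lower (KRT19, KRT7 and CLDN4), 0 higher, and KRT8 and KRT18 not past. Mitochondrially encoded genes took 4.23% to 4.75% of counts in the control libraries and 7.77% to 8.50% in the knockdown libraries, and without them 6 chains were higher and 7 lower. In bulk RNA fewer cells that carry a transcript and less of it per cell cannot be told apart.

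Ratios between partner chains of a trimer were compared for 7 pairs, by an exact permutation test over libraries, two-sided, which cannot go below p = 0.10 with 3 libraries against 3. The pair COL4A4 to COL4A3 was added after the data were seen. In count ratios, COL6A3 to COL6A1 was the pair without overlap. Its log2 count ratio was −2.37, −2.62 and −2.82 with the control hairpin and −3.21, −2.92 and −3.17 with the METTL3 hairpin, a difference of −0.50 (exact p = 0.10, adjusted p = 0.70). Per length, COL6A3 stood at 0.134 ± 0.013 of the FPKM of COL6A1 (SD, n = 3) with the control hairpin and 0.095 ± 0.011 (SD, n = 3) with the METTL3 hairpin. COL4A2 to COL4A1 changed by −0.02 in log2 count ratio (exact p = 0.80), and its FPKM ratio was 1.98 ± 0.10 and 1.99 ± 0.14. COL6A2 to COL6A1 differed by −0.16 (exact p = 0.40), with FPKM ratios of 2.85 ± 0.48 and 2.48 ± 0.13. COL4A4 to COL4A3 differed by −0.0032 in counts (exact p = 1), though by −0.41 in log2(FPKM + 0.1). Its FPKM ratio was 1.095 ± 0.014 and 0.724 ± 0.059 (SD, n = 3 each), without overlap, at the low FPKM of both chains. The other pairs, COL5A2 to COL5A1, COL8A2 to COL8A1 and COL9A3 to COL9A2, had exact p from 0.50 to 1. For COL1A2 to COL1A1 and COL4A6 to COL4A5 no ratio was formed, because 1 chain of each had failed the filter on low counts.

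Collagen transcripts share a long coding sequence cut into many exons. In GENCODE 29 (GRCh38) the chosen transcript, that with the longest coding sequence, had a median of 6489 bases and 48 exons over the tested chains, against 3022 bases and 9 exons over 13820 protein-coding genes tested. The sequence GGACT, a common core of m6A sites when read as RNA (GGACU), occurred 2 to 20 times per chain, on the strand of the transcript. Its median density was 1.62 per kilobase over the tested chains and 0.951 over all protein-coding genes tested, and 17 of 28 chains exceeded the upper quartile of the latter, 1.43 per kilobase. The median GC content differed as well, at 59.6% and 49.8%, and its part in the density was not tested. The median density was 1.45 in the 6 chains that rose, 2.00 in the 7 that fell and 1.58 in the 15 that did not pass. Their ranges overlapped, at 0.578 to 2.16, 1.02 to 2.79 and 0.743 to 2.93 per kilobase. The difference between these sets was not tested. By density the extremes of the tested chains were COL6A2, at 0.578 per kilobase, which rose, and COL4A5, at 2.93 per kilobase, which did not pass. The counts of 2 and 20 were those of COL6A2 and COL7A1, whose chosen transcripts differ in length (3461 and 9276 bases). These are matches of letters only, and methylation was not measured here.

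The promoter table held 44 windows for 32 of the 44 chains. A GC box was found in 24 of these windows (54.5%), a CCAAT box in 14 (31.8%) and a TATA box in 8 (18.2%), counting either strand. Over all 35116 windows of the same 300-base length the shares were 45%, 34.6% and 11.5%. A box was counted wherever its letters occurred, including where it overlapped another.

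Genes that modify, fold, process, crosslink, bind or degrade collagen were read from 6 lists of 60 genes in all. Of 55 tested, 11 rose and 8 fell, or 34.5% beside 33.5% of all genes tested, and the median log2 fold change was −0.0031. The chains enter the endoplasmic reticulum, where prolyl and lysyl hydroxylases act on them. In that list of 14, 5 rose and 1 fell. CRTAP, the cartilage-associated protein of the prolyl 3-hydroxylase complex, stood at 125, 122 and 110.0 CPM with the control hairpin and at 204, 216 and 174 CPM with the METTL3 hairpin, with no overlap (0.74, SE 0.09, edgeR adjusted p = 0.000133). COLGALT1, which adds galactose to hydroxylysine, rose by 0.49 (SE 0.10), and the prolyl 4-hydroxylase subunits P4HA1 and P4HB rose by 0.39 (SE 0.08) and 0.33 (SE 0.09). P3H3 rose by 0.36 (SE 0.12), with overlap between the groups. The prolyl 3-hydroxylase P3H2 fell (−0.37, SE 0.08). The call of P4HB was lost without knockdown library A or B or control library B or C (edgeR adjusted p from 0.0522 to 0.0739).

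In the folding and export list 0 of 12 genes passed the edgeR test. At an unadjusted p under 0.05 there were 3 higher genes (FKBP10, TMEM38B and MIA2) and 2 lower genes (FKBP14 and MIA3), and DESeq2 and limma-voom each called 1 higher, FKBP10, and 0 lower. FKBP10, a prolyl isomerase, stood at 0.24 (SE 0.09, edgeR adjusted p = 0.0505), and at 0.0169 in adjusted p with DESeq2. FKBP14 (−0.26) did not pass, but it did as lower with library size scaling (adjusted p = 0.0194), without the filter on low counts (0.0347), with the block on column letter (0.0405) and without control library A (0.0121). TMEM38B (0.21) and MIA2 (0.22) did not pass, but each did with a minimum of 1 CPM in 3 libraries (0.0469 and 0.0499) and with the block (0.0467 and 0.0407). FKBP10 passed with these 2 settings too (0.0403 and 0.0210) and without knockdown library C (0.0181). Not past either was SERPINH1, the collagen chaperone (0.12, SE 0.08, edgeR adjusted p = 0.259). Of 8 propeptide processing genes, 0 rose and 3 fell, beside 16.5% higher and 16.9% lower among all genes tested. At an unadjusted edgeR p under 0.05, with DESeq2 and with limma-voom, 0 of them were higher. Those that fell were the proteinase TLL2 (−0.64, SE 0.13), the procollagen N-proteinase ADAMTS2 (−0.41, SE 0.10) and the enhancer PCOLCE2 (−0.57, SE 0.18). PCOLCE did not pass (0.22, SE 0.12). ADAMTS2 did not pass with FPKM (adjusted p = 0.319 to 0.493), and PCOLCE2 was lost in 4 of the 6 fits without a library (edgeR adjusted p from 0.0618 to 0.0909).

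Among 6 tested crosslinking genes, 2 rose and 1 fell. For this list and the receptor and degradation lists below, the shares over all genes tested were 16.5% higher and 16.9% lower. LOXL2, a lysyl oxidase that also acts on type IV collagen, stood at 1291, 1115 and 863 CPM with the control hairpin and at 1692, 1839 and 1484 CPM with the METTL3 hairpin (0.62, SE 0.13, edgeR adjusted p = 0.00363). It shares exons with ENTPD4 on the same strand, as ITGA1 does with PELO and P3H3 with GPR162, while LOX overlaps SRFBP1 and TGM2 overlaps RPRD1B on the opposite strand. Reads of these pairs may not have been divided correctly. The transglutaminase TGM2 rose by 0.64 (SE 0.10), LOXL1 fell (−0.49, SE 0.10), and LOX did not pass (0.28, SE 0.13). Of 9 tested collagen receptors, 3 rose and 3 fell. MRC2, an endocytic receptor that takes up collagen, rose by 0.70 (SE 0.12) and ITGA2, an integrin subunit for collagen, by 0.64 (SE 0.11), and DDR1 by 0.26 (SE 0.08). The integrin subunits ITGA10 (−1.34, SE 0.26) and ITGA1 (−0.51, SE 0.13) fell. The platelet receptor GP6, counted as the third that fell, had 18, 20 and 38 counts with the control hairpin and 7, 6 and 8 with the METTL3 hairpin (−1.70, SE 0.41). It reached 10 counts in the control libraries alone, so the filter kept it through the group in which it was high. Of 6 tested degradation genes, MMP14, a membrane-bound collagenase, rose by 0.61 (SE 0.12) and 0 fell. DESeq2 and limma-voom also called 0 lower, and 1 was lower at an unadjusted edgeR p under 0.05, the gelatinase MMP2 (−0.25, SE 0.10, edgeR adjusted p = 0.0771). MMP2 did pass as lower with library size scaling (adjusted p = 0.0123), without the filter on low counts (0.0321), with limma on log2(FPKM + 1) (0.0161) and log2(FPKM + 0.1) (0.0168), and with the block on column letter (0.0329). MMP9 (0.38, SE 0.19) and the lysosomal proteinase CTSB (0.13, SE 0.09, with a sign that turned on FPKM) did not pass.

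**Figure D5:**
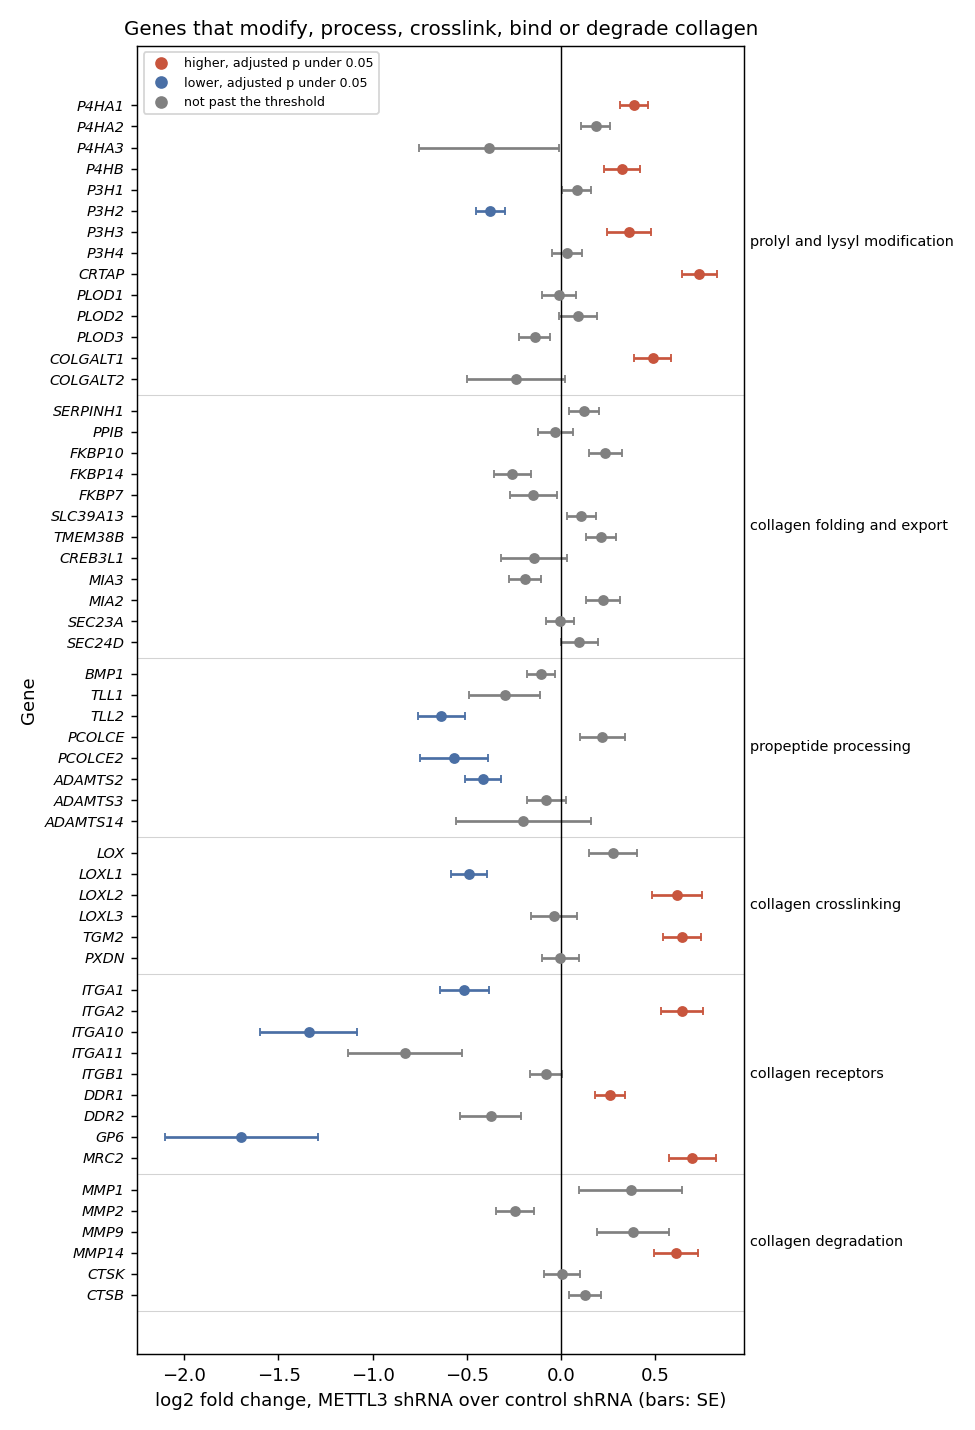
Log2 fold change of METTL3 shRNA over control shRNA (horizontal axis) for the 55 tested genes of 6 lists (vertical axis), with bars for the standard error. Red marks the 11 genes past the threshold that were higher, blue the 8 that were lower.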

How the data were processed

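The 6 libraries, 3 per group, were made from 786-O cells and read by rRNA-depleted paired-end sequencing on a DNBSEQ platform, per the labels' protocols. The authors deposited whole-number counts per gene and FPKM values. GRCh38, Salmon and STAR 2.7.10b are listed in the submitters' processing notes, without their roles. Annotation and strand setting: not given in the sources used here. Columns that do not name the control shRNA were taken as METTL3 shRNA, the only other group.

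Counts were fitted over all genes with edgeR 4.0.16 (R 4.3.3): filterByExpr with a minimum count of 10, which left 18740 genes, TMM scaling, the quasi-likelihood test and Benjamini-Hochberg adjustment at 0.05. Standard errors came from the F statistic. Alternatives were other scalings, DESeq2 1.42.0, limma 3.58.1 (voom, and log2 FPKM with pseudocounts of 1 and 0.1), other filters, a block on column letter, leaving out mitochondrial genes, and leaving out each library. The fit was tested on simulated counts. Within each group, no pair of libraries was a copy (chi-square divided by its degrees of freedom, 16.4 to 62.1). The members and gene lists were chosen with earlier results of these data known. Chains past the threshold or of at least 1 FPKM were given values, and of each pathway list the up to 4 genes of smallest p and P4HA1, P4HB, SERPINH1 and LOX were named. ITGA1, DDR1, P3H3 and MIA3 were added after their values were seen. Position, exons and transcripts came from GENCODE 29 and promoter sequences from RefSeq (GRCh38.p14).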

Additional observations from a re-analysis of the deposited data

How the results depend on the processing

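Over 17 alternatives of the fit, METTL3 stayed lower and past the threshold. The direction and call of COL4A3, COL4A4, COL6A1 and COL13A1 held in each alternative that kept them. With limma on log2(FPKM + 1) or log2(FPKM + 0.1), 3 chains were higher and 3 lower of 16 left by the filter, and without the filter 3 were higher and 1 lower, while 5 pathway genes were higher and 4 lower. In the filtered fits 1588 genes were higher and 3730 lower of 15046 with 1 added (median of all genes −0.09), and 1568 and 3710 with 0.1 added (median −0.12), against 3099 and 3171 of 18740 with edgeR. Without the filter 1027 were higher and 2244 lower of 31319. With library size scaling, which moved the median of all genes to −0.11 and gave 1985 higher and 4727 lower, 15 pathway genes were lower, and COL4A1 (−0.10) and COL27A1 (−0.079) turned sign. Without 1 library each, 6 to 7 chains were higher and 4 to 8 lower, and 8 to 12 pathway genes were higher and 7 to 9 lower.

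Signs also turned for values that never passed. With FPKM they were −0.0068 for COL4A1 (−0.0069 with 0.1 added), −0.0034 for COL27A1 (−0.0036), −0.023 for CTSB, 0.0046 for COL5A1 and −0.038 for COL9A2. Leaving out 1 library each gave log2 fold changes from −0.12 to 0.048 for COL5A2, from −0.041 to 0.051 for COL4A1, from −0.15 to 0.18 for COL5A1, from −0.074 to 0.023 for COL4A2, from −0.18 to 0.079 for COL8A1, from −0.93 to 0.070 for COL9A3, from −0.028 to 0.080 for COL27A1, from −0.12 to 0.014 for COL4A5 and from −0.68 to 0.0088 for COL8A2. The group differences in partner ratios ran from −0.050 to 0.019 for COL4A2 to COL4A1, from −0.12 to 0.082 for COL4A4 to COL4A3, from −0.22 to 0.20 for COL5A2 to COL5A1 and from −0.63 to 0.21 for COL8A2 to COL8A1. With FPKM + 0.1 these differences were 0.0059 for COL4A2 to COL4A1, −0.15 for COL5A2 to COL5A1 and −0.41 for COL4A4 to COL4A3.

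The column letter was tried as a replicate block, although the letters did not pair the libraries (correlation of deviations −0.018 for A, −0.049 for B and 0.169 for C). With the block 7 chains were higher and 8 lower, since COL6A3 (0.32, edgeR adjusted p = 0.0455) and COL24A1 (−1.72, edgeR adjusted p = 0.0407) passed, and 14 pathway genes were higher and 10 lower. The filter on low counts left 15 silent chains and COL4A6 out of the main test. Without that filter 42 chains were tested, of which 7 were higher and 8 lower, beside 3305 and 3375 of 31952 genes. The cause of these shifts was not tested.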
